A study of Drosophila melanogaster with 13 samples.

Results

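Testes mutant for sa, which encodes a testis-specific TAF, were set against testes mutant for aly or topi, which encode subunits of the testis meiotic arrest complex (tMAC), in Drosophila melanogaster. The 6 arrays, of 13 in the series, were chosen by their genotype labels: 2 of sa, 2 of aly and 2 of topi testes. The 4 arrays of control testes are given as the background, and the 3 dany arrays of the series entered the estimate of the spread and the filter on dim probes (18409 instead of 19766 targets passed it through sa, aly or topi alone). Each array measured total RNA of 80 pooled testes from males aged 0 to 2 days and raised at 25 °C, labelled with a single dye.

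The sa males carried sa[1], on a chromosome with th and red, over sa[2], on a chromosome with ru, h and ca, and were labelled +/Y. The aly males were w*/Y, with aly[2] over aly[5] and red and e on both chromosomes. The topi males were +/Y, with bw and with topi[Z3-0707] over topi[Z3-2139]. Control males were w[1118]/Y and carried the deficiency Df(2R)BSC802 over a wild-type chromosome. The labels of the dany males give the allele dany[ex11]. The sa, aly and topi mutants therefore differ from each other in marker mutations and background as well as in the arrest gene, and these cannot be told apart. The labels call the replicates biological but do not say that they came from separate cultures, so the p-values measure the spread between these samples.

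Genes for meiosis and sperm formation are transcribed in primary spermatocytes, before meiosis starts. tMAC, a testis relative of the MuvB-type complexes, is needed for that transcription, both of meiotic cell cycle genes and of spermatid genes. The testis TAFs, counterparts of subunits of the general factor TFIID, are needed for many of the spermatid genes, while cell cycle genes such as twine are still transcribed without them. Loss of either stops germ cells as mature primary spermatocytes, so the comparison asks what a testis without a testis TAF transcribes that a testis without tMAC does not.

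Values are levels, the log2 signal of a probe minus the 75th percentile of its array, and differences are sa minus the mean of the aly mean and the topi mean. A target (a gene, transcript or cDNA clone) was called at a Benjamini-Hochberg adjusted p under 0.05 by limma and at least a 2-fold difference, and SE is the standard error of that difference. Of 25796 targets 19766 were tested, and the gene table gave symbols to 372 of those, of 364 genes. The share of spots well above background was 72.1% to 75.5% in sa, 66.6% to 68.6% in aly, 64.7% to 67.3% in topi and 64.4% to 72.0% in control. Replicates correlated at r = 0.968 in sa, 0.972 in aly and 0.916 in topi across targets. No probe was tied to sa, aly or topi by the gene table, so the mutated genes were not analysed here in their own samples. Whole testes were pooled, so fewer cells of a type and less RNA per cell cannot be told apart.

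One tMAC array stood apart among the targets higher in sa. Among the 3717 targets that were higher in sa when topi replicate 2 was left out, the median level was -1.30 and -1.29 on the sa arrays, -5.30 and -5.32 on the aly arrays and -5.77 on topi replicate 1, but -3.40 on topi replicate 2. That array lay 34.2% of the way to sa by the median target, and 40.1% of the targets lay nearer to sa than to the other tMAC arrays. When each other tMAC array was held out in the same way, it lay on the far side of the others from sa. The positions were -5.72% and -8.47% for the aly replicates and -26.4% for topi replicate 1. The others then included topi replicate 2, and their median level was -5.11, -4.95 and -4.35 in turn. With topi replicate 2 held out it was -5.43, so these positions are not independent of that array. For targets lower in sa the arrays were placed otherwise. There aly replicate 1, held out in turn, lay 27.7% of the way to sa, topi replicate 2 lay 9.20%, aly replicate 2 -2.93% and topi replicate 1 -22.3%. Without aly replicate 1, 4104 targets were lower in sa. The array of topi replicate 2 correlated with topi replicate 1 at r = 0.916 and with sa replicate 2 at r = 0.894, and it shared slide 3 with sa replicate 2. Counts and the main gene values are therefore given with and without topi replicate 2.

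**Figure D1:**
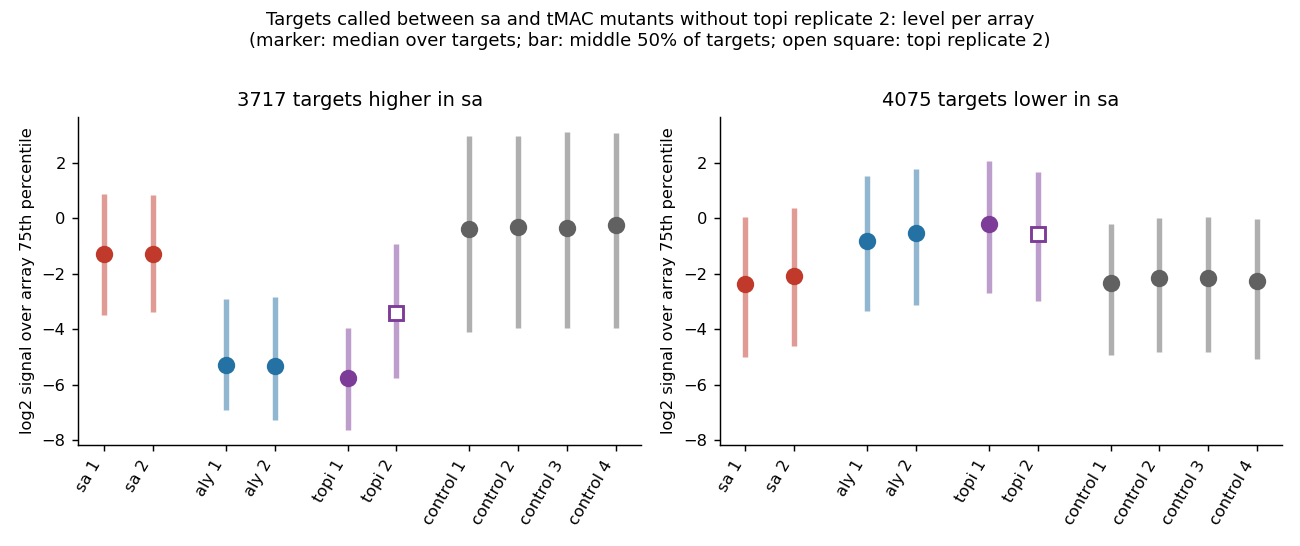
Level (log2 signal over the 75th percentile of the array) of the 3717 targets higher and the 4075 lower in sa than in tMAC mutants, called without topi replicate 2, on each sa, aly, topi and control array. Markers are medians over targets and bars the middle 50% of targets; the open square, topi replicate 2, sits at -3.40 for the higher targets, between the sa arrays at -1.30 and -1.29 and the other tMAC arrays at -5.30 to -5.77.

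Many transcripts were higher in sa than in tMAC mutant testes, and most of the large differences ran that way. Of all targets tested, 3583 were higher (18.1%) and 3791 lower (19.2%) in sa than in tMAC mutants, so that 37.3% were called. The median called rise was 2.86 on the log2 scale and the median called fall -1.50, and 1706 rises against 218 falls reached 8-fold, or 1618 against 197 with bounds used for targets below background on every array of a group. Over all targets the median difference was -0.32. Without topi replicate 2 the counts were 3717 (18.8%) and 4075 (20.6%), sharing 3444 and 3652 targets with the counts above.

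The higher targets lay nearer to control in sa than in the tMAC mutants. Their median level was -1.37 and -1.39 on the sa arrays, -5.36, -5.43, -5.74 and -3.64 on the aly and topi arrays and -0.89 for the control mean. Set against control, the median difference came to -0.70 for sa, -3.45 for aly and -3.77 for topi. The lower targets showed the other arrangement, near control in sa and above it in the tMAC mutants. Their median level was -2.70 and -2.33 on the sa arrays, -1.08, -0.78, -0.37 and -0.73 on the aly and topi arrays and -2.48 for the control mean. Against control the median difference came to 0.33 for sa, 1.85 for aly and 2.08 for topi. These differences share arrays with each other and with the calls, so they describe the called targets and test nothing further. Of the higher targets 68 passed the filter on dim probes through sa alone, and of the lower 266 through aly or topi alone; these could be tested only because of the arm where they were high.

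Both sa arrays lay above all 4 tMAC arrays for 3740 targets (18.9%), of which 3084 were called, and below all 4 for 6276 (31.8%), of which 3420 were called. The arrays lay on 4 slides. Slide 1 held sa replicate 1 and aly replicate 1, where the median difference was 2.87 for the higher and -1.42 for the lower targets. Slide 3 held sa replicate 2 and topi replicate 2, where the medians were 2.04 and -1.28. These arrays belong to the comparison that made the calls, so the medians describe its spread over slides and are no separate test. With slide as a block 3479 targets were higher and 3745 lower.

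The split of calls into higher and lower depended on the scaling between arrays. Higher targets made up 48.6% of the calls, but 32.0% with median scaling (3052 higher, 6480 lower) and 79.2% with spike-in scaling (2584 higher, 680 lower). The median difference over all targets was -0.71 with median scaling and -0.21 with spike-in scaling. Without sa replicate 1 the lower count was 2370. When only the 13833 targets above background on all 6 arrays were tested, 1484 were higher and 3085 lower, so that higher targets made up 32.5% of the calls.

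Against each tMAC genotype alone, sa was higher for 3308 (16.7%) and lower for 3228 targets (16.3%, together 33.1%) relative to aly, and higher for 3488 (17.6%) and lower for 4197 (21.2%, together 38.9%) relative to topi. Higher targets were 50.6% of the calls against aly (32.8% with median and 87.4% with spike-in scaling) and 45.4% against topi (34.1% and 72.1%). These comparisons share the sa arrays. Between aly and topi themselves 1439 targets were higher (7.28%) and 1514 lower (7.66%), so the mean of both genotypes does not stand for either one everywhere. These counts were 461 and 667 with spike-in scaling, 768 and 564 in a fit of the 6 arrays of sa, aly and topi alone, and 1048 and 937 without aly replicate 1.

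Some transcripts were seen in 1 arm only. On both sa arrays and on no tMAC array, 655 targets were well above background, at least 4.62-fold higher in sa by the median. Of these, 329 were above background on all 4 control arrays and 184 on none. In the other direction, 119 targets were above background on all 4 tMAC arrays and on no sa array, at least 6.0-fold lower in sa by the median. Of these 18 were above background on all 4 control arrays and 59 on none. Detection on the compared arrays chose these targets, so their values are a description with no test. Without topi replicate 2 the first count was 1180, of which 525 were above background on topi replicate 2, and the second 161.

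Of 6 groups of cDNA clones, those from adult testis were most often higher in sa. The array carries cDNA clone targets whose name prefix gives the library they came from. Of 114 adult testis clones, 60 were higher and 7 lower in sa, with a median difference of 1.79. Over all targets 18.1% were higher and 19.2% lower, with a median of -0.32. Their median level was -1.06 and -1.25 on the sa arrays, -4.51 and -4.77 on the aly arrays, -5.61 and -2.68 on the topi arrays and between 0.42 and 1.24 on the control arrays. Each sa array was above each tMAC array by this median and below each control array. Relative to control, testis clones differed by a median of -1.64 for sa, -3.59 for aly and -4.09 for topi.

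The medians of the other clone groups lay below 0, as did that over all targets (-0.32, with 18.1% higher and 19.2% lower). Of 102 adult head clones 18 were higher and 27 lower (median -0.42), of 143 embryo clones 11 and 35 (median -0.53), of 49 ovary clones 3 and 11 (median -0.41), and of 55 Schneider cell clones 5 and 14 (median -0.38). The 24 larval and pupal clones had 8 higher and 5 lower (median -0.25). Without topi replicate 2 the testis clones had 69 higher and 7 lower and a median of 2.37. Within slides their median was 1.49 for sa replicate 1 minus aly replicate 1 and 0.69 for sa replicate 2 minus topi replicate 2, and with normexp background correction it was 0.88.

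**Figure D2:**
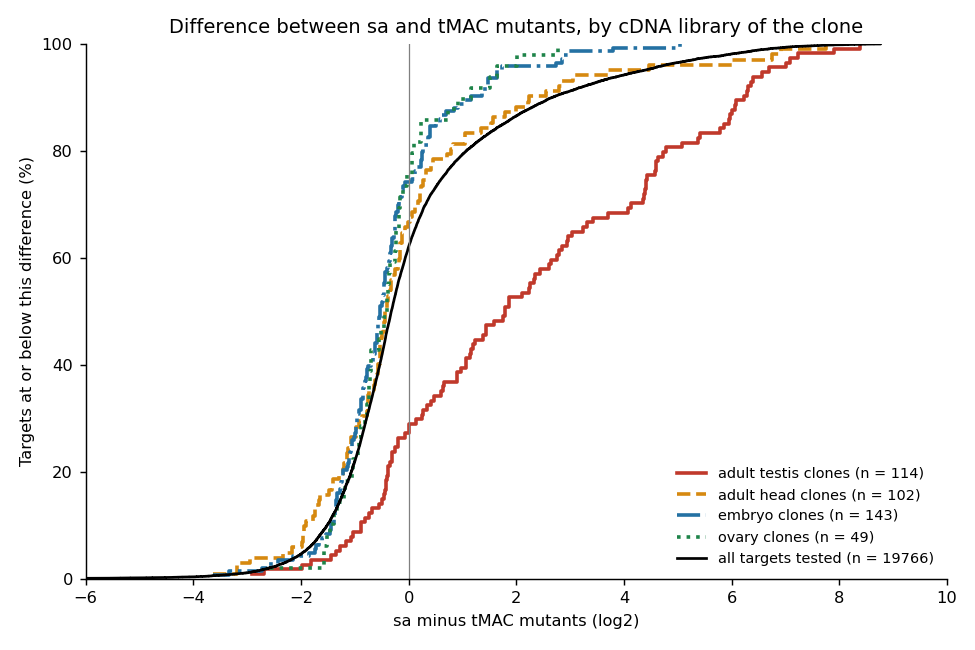
Share of targets (%) at or below a given difference between sa and tMAC mutants (log2), for cDNA clones from adult testis, adult head, embryo and ovary and for all 19766 targets tested. The curve of the 114 testis clones runs to the right of the others, with a median of 1.79, while the medians of the other 3 libraries shown are -0.42, -0.53 and -0.41.

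Among the 372 targets with symbols, 88 were higher (23.7%) and 53 lower (14.2%) in sa. Those with a bare annotation number as symbol leaned to the higher side (69 higher and 24 lower of 187), and those with a proper gene symbol did not (19 higher and 29 lower of 185). The 17 named genes that were higher and the 18 that were lower follow by what they encode. Where every array of a genotype was below background, the fold is a bound and is written "at least".

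The 4 largest named rises were in genes whose signal in control was far above that on every tMAC array: ND-B14.5AL, lncRNA:Yu, Vha100-3 and Nasp. Of the tMAC arrays, topi replicate 2 had the highest level in each. ND-B14.5AL, a paralog of a subunit of mitochondrial complex I, had levels of 1.01 and 0.87 in sa, -6.11 and -6.78 in aly, -5.34 and 0.24 in topi and 4.50 ± 0.22 in control (SD, n = 4). Both sa arrays lay above all 4 tMAC arrays, although topi replicate 2 came within a short distance of them. The difference was 5.44 (SE 1.084, adjusted p = 0.00237), at least 43.3-fold, and 6.83 without topi replicate 2 (adjusted p = 1.57e-08). Within slides it was 7.12 for sa replicate 1 minus aly replicate 1 and 0.63 for sa replicate 2 minus topi replicate 2. Even so, sa was 3.56 below control (adjusted p = 0.0193), and the tMAC mean 9.0 below it (adjusted p = 5.48e-06).

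Vha100-3 encodes a subunit of the membrane part of the vacuolar proton pump. Its levels were 2.03 and 2.43 in sa, -3.83 and -3.52 in aly, -6.0 and 0.74 in topi and 4.42 on average in control. The sa arrays were again above all tMAC arrays, with topi replicate 2 the nearest. The difference was 5.38 (SE 1.299, adjusted p = 0.00669) and 7.07 without topi replicate 2 (adjusted p = 1.16e-08), within slides 5.86 and 1.69. In a fit of the 6 arrays of sa, aly and topi alone the adjusted p was 0.0739.

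Nasp encodes a histone chaperone. It had levels of -2.73 and -3.03 in sa, -8.11 and -8.30 in aly, -8.04 and -5.14 in topi and -0.24 on average in control, and 3 of the 4 tMAC arrays were below background. In sa it was about 16.2-fold higher (difference 4.52, SE 0.578, adjusted p = 0.000174), with 5.24 without topi replicate 2 and 5.38 and 2.11 within slides. The difference was 1.81 with normexp background correction. Relative to control it was -2.64 in sa (adjusted p = 0.00346).

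Other rises brought sa to the control level. sle (slender lobes) encodes a nucleolar protein and had levels of 2.38 and 1.81 in sa, -0.13 and -0.26 in aly, -0.16 and -0.35 in topi and 2.20 on average in control. Every sa array lay about at control and every tMAC array well below, topi replicate 2 included. The difference was 2.32 (SE 0.216, adjusted p = 2.45e-05) and 2.27 without topi replicate 2, and the difference of sa from control was -0.11 (adjusted p = 0.696). tor, which encodes the receptor tyrosine kinase Torso, was above background on both sa arrays and all control arrays and on no tMAC array, at least 4.92-fold higher in sa (adjusted p = 0.000336). Its levels were -5.06 and -4.45 in sa, -6.68, -7.34, -7.55 and -6.66 in aly and topi and -4.41 on average in control. With normexp background correction the difference of tor was 0.68 and under the 2-fold minimum.

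Several genes were higher in sa than in tMAC mutants and in control alike. slp1 encodes the forkhead transcription factor Sloppy paired 1. It had levels of -2.46 and -1.92 in sa, -4.98 and -3.99 in aly, -5.41 and -4.46 in topi and -4.01 on average in control, so that both sa arrays stood above every tMAC and control array. The difference was 2.52 from tMAC (SE 0.389, adjusted p = 0.000542) and 1.82 from control (adjusted p = 0.00306). Cpr60D, a cuticular protein gene, had levels of -2.02 and -1.27 in sa, -3.24 and -2.99 in aly, -5.62 and -6.16 in topi and -3.73 on average in control. Here aly lay between sa and topi. The difference was 2.86 (SE 0.264, adjusted p = 2.31e-05), and it was 1.74 with normexp background correction. Relative to control, Cpr60D was 2.08 higher in sa (adjusted p = 0.000118). The Shaker potassium channel is encoded by Sh, which had levels of -5.05 and -3.45 in sa and was below background on all tMAC and control arrays, at least 4.72-fold higher in sa than in tMAC (adjusted p = 0.00752). The call of Sh rested on sa replicate 2: without it the difference was 1.44 (adjusted p = 0.0982), with normexp 0.69 (adjusted p = 0.151) and 1.36 in the deposited value table.

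Smaller or less steady rises were found in RpS29, Prosbeta4R2, Gen and eg. RpS29, for a protein of the small ribosomal subunit, had levels of -1.34 and -1.24 in sa, -2.80, -2.29, -3.06 and -2.77 in aly and topi and -0.01 on average in control (difference 1.44, SE 0.237, adjusted p = 0.000767), but 0.93 in the deposited value table. Prosbeta4R2, a relative of a core proteasome subunit gene, was at least 2.19-fold higher, but of sa, aly, topi and control it was above background in sa alone. It passed the filter on dim probes only through sa, so its p is not given, and its call ended without sa replicate 1 (1.66) and with normexp (0.72). Gen, for a nuclease of recombination intermediates, differed by 2.14 (adjusted p = 0.0231), by 1.32 without aly replicate 2, and missed the threshold without sa replicate 1 or 2 (adjusted p = 0.0933 and 0.103), with slide as a block (0.0908) and in the fit of 6 arrays (0.124). The nuclear receptor gene eg (eagle) differed by 1.66 (adjusted p = 0.0224), but its call ended without sa replicate 1 (1.24, adjusted p = 0.196), aly replicate 2 (1.53, adjusted p = 0.0589) or topi replicate 1 (1.59, adjusted p = 0.0509), with normexp (0.64) and in the deposited value table (0.98). The levels of Gen were 0.15 and 0.35 in sa, -1.33 and -4.61 in aly, -0.59 and -1.02 in topi and -0.06 on average in control, so that aly replicate 2 was the lowest.

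**Figure D3:**
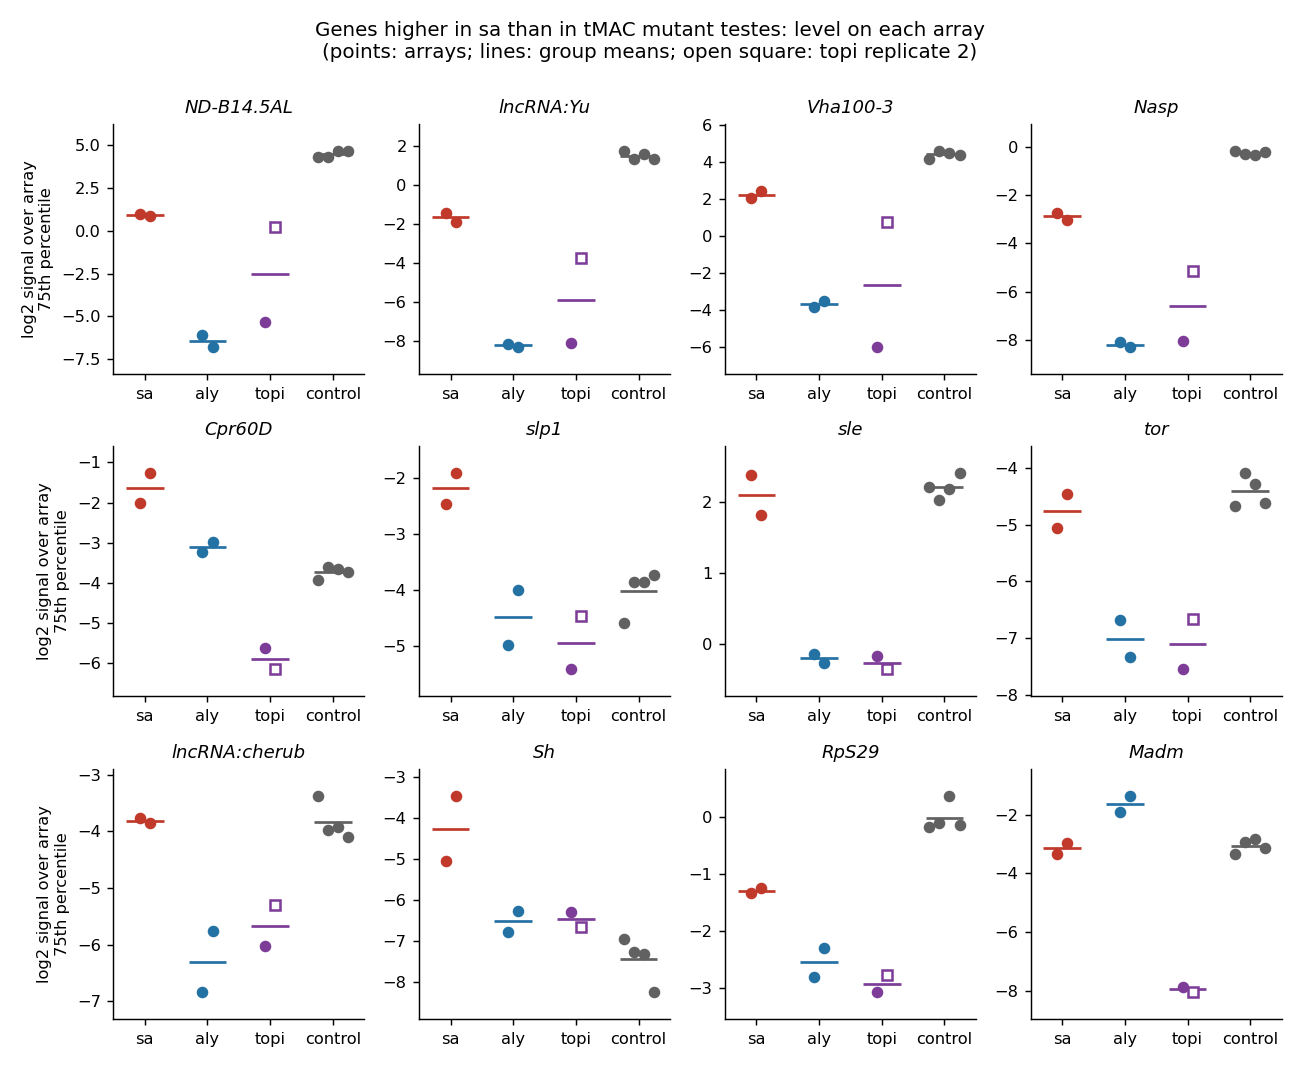
Level (log2 signal over the 75th percentile of the array) of 12 genes higher in sa than in tMAC mutants, on each sa, aly, topi and control array, with lines at group means. For ND-B14.5AL, lncRNA:Yu, Vha100-3 and Nasp topi replicate 2 (open square) lies between the other tMAC arrays and sa, while for sle, Cpr60D and Madm it lies with topi replicate 1.

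The largest named fall was in Art7, which encodes a protein arginine methyltransferase. Its levels were -7.14 and -8.65 in sa, -1.13 and -2.16 in aly, 1.22 and 0.14 in topi and -7.84 ± 0.6 in control (SD, n = 4). Neither sa array nor any control array was above background, and all 4 tMAC arrays were. Art7 was at least 120-fold lower in sa (difference -7.41, SE 0.596, adjusted p = 9.29e-06) and -7.68 without topi replicate 2, with within-slide differences of -6.01 and -8.79. The difference of sa from control was -0.06 (adjusted p = 0.948), and that of the tMAC mean 7.36 (adjusted p = 3.63e-07). With normexp background correction the fall was -4.24.

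atos and bic were likewise below background on both sa arrays and above it on all 4 tMAC arrays. atos (atossa) had levels of -7.89 and -7.16 in sa and -4.12, -3.65, -4.56 and -5.04 in aly and topi, against -6.85 on average in control, at least 9.10-fold lower in sa (adjusted p = 0.000487). bic (bicaudal), for the beta subunit of the nascent polypeptide-associated complex, had levels of -7.21 and -7.41 in sa, -4.56, -4.46, -5.58 and -4.50 in aly and topi and -8.43 on average in control, at least 5.80-fold lower in sa. It passed the filter on dim probes only through aly and topi, so its p is not given. In both genes, all sa arrays lay under all tMAC arrays. With normexp the fall of atos was -1.32, and that of bic was -0.94 and no longer reached 2-fold.

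For nAChRalpha6, a subunit gene of the nicotinic acetylcholine receptor, sa took a middle place. Its levels were -4.68 and -4.54 in sa, -2.71, -2.55, -2.67 and -2.70 in aly and topi and -7.99 on average in control, where no array was above background. The fall from tMAC was -1.95 (SE 0.311, adjusted p = 0.000645), and it was -1.26 with normexp. Relative to control, sa was 3.38 higher (adjusted p = 1.62e-05) and the tMAC mean 5.33 higher (adjusted p = 5.42e-08). hwt lay between in the same way, with levels of -4.24 and -3.77 in sa, -2.56, -2.22, -0.67 and -1.27 in aly and topi and -5.65 on average in control (difference -2.33, SE 0.274, adjusted p = 0.000104).

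wuc (wake-up-call) encodes a homologue of the MuvB subunit LIN52 that binds Aly. It was the only member of the tMAC list that the gene table matched, and others may lie among the targets without a symbol. It had levels of 1.02 and 1.39 in sa, 2.56 and 3.00 in aly, 3.94 and 3.26 in topi and 0.55 on average in control. All tMAC arrays were above both sa arrays. The difference was -1.98 (SE 0.287, adjusted p = 0.000369) and -2.15 without topi replicate 2, and the difference of sa from control was 0.66 (adjusted p = 0.079). It was -1.88 with spike-in scaling (adjusted p = 0.0741).

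Of 5 ribosomal protein genes 1 was higher (RpS29, above) and 1 lower, with a median of -0.71, so that their shares were about those over all targets (18.1% and 19.2%). RpL18 was called only with median scaling (-1.16, adjusted p = 0.0157). RpS7 had levels of -6.10 and -5.79 in sa, -5.09, -4.86, -3.69 and -3.09 in aly and topi and -5.61 on average in control (difference -1.76, adjusted p = 0.000276). This probe was dim, above background on 3 control arrays, while RpL18 averaged 2.86 in control. Whether it reports the main transcript of RpS7 was not tested. Of 11 mitochondrial genes 1 was higher (ND-B14.5AL) and 2 lower, both for proteins of the mitochondrial ribosome, with a median of -0.42. mRpL9 had levels of 2.05 and 2.63 in sa, 3.34, 3.78, 4.30 and 3.91 in aly and topi and 1.69 on average in control (difference -1.50, SE 0.256, adjusted p = 0.000975). mRpS16 differed by -1.23 (SE 0.198, adjusted p = 0.000683), and by -0.92 with quantile normalization and -0.90 in the deposited value table. RpS7 fell short of 2-fold with normexp (-0.99). Another mitoribosomal gene, mRpS24, was not called (-1.54, adjusted p = 0.224), but was with slide as a block (-2.02, adjusted p = 0.0172) and without sa replicate 1 (-3.25, adjusted p = 0.0362), and without sa replicate 2 its difference was 0.17.

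Hosts of small nucleolar RNAs also fell. Uhg3 had levels of -1.93 and -0.90 in sa, -0.33, 0.05, 1.19 and 0.76 in aly and topi and -0.64 on average in control (difference -1.83, SE 0.339, adjusted p = 0.00154). Uhg2 had levels of -2.74 and -1.78 in sa, -1.09, -0.48, -0.45 and -0.64 in aly and topi and -2.53 on average in control (difference -1.60, adjusted p = 0.00508). The call of Uhg2 ended without sa replicate 1 (-1.12, adjusted p = 0.0805). The third host, Uhg5, went the other way and is described with the genes that separate aly from topi.

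The other named falls, apart from LysE, were in Mob2, Snx27, Wdr24, Tango14, Rab2 and Usp47. In sa, Snx27 lay below control (-1.77, adjusted p = 0.00675), while its tMAC mean differed from control by 0.15. Mob2 was also below control in sa (-0.98, adjusted p = 0.028), with aly at -0.04 and topi at 1.98 from control. For Wdr24 and Tango14 sa lay above control, by 1.42 (adjusted p = 0.0113) and 1.15 (adjusted p = 0.0427). Usp47 in sa was not told apart from control (0.16, adjusted p = 0.741). Rab2 differed from control by 0.28, with both sa arrays and all but 1 control array below background. Mob2, for an activator of NDR-family kinases, differed by -1.95 (adjusted p = 0.000853). Snx27, a sorting nexin gene, differed by -1.92 (adjusted p = 0.00485), but by -1.23 without sa replicate 1 (adjusted p = 0.08) and by -0.75 with normexp. Wdr24, for a subunit of the GATOR2 complex, differed by -1.65 (adjusted p = 0.00577), and by -1.25 without sa replicate 1 (adjusted p = 0.0812). For Tango14 the difference was -1.55 (adjusted p = 0.0124), with -1.05 without sa replicate 1 (adjusted p = 0.157), -0.80 with normexp and an adjusted p of 0.0625 in the fit of 6 arrays. The small GTPase gene Rab2 was about 2.10-fold lower. It passed the filter on dim probes only through aly, so its p is not given, and it was not called without sa replicate 2 (-0.97) or topi replicate 1 (-0.91), with slide as a block (-0.94), with normexp (-0.47) or in the deposited value table (-0.84). Usp47, a deubiquitinase gene, differed by -1.11 (adjusted p = 0.0279), and its call ended without sa replicate 1 (-0.58, adjusted p = 0.317), aly replicate 2 (-0.85, adjusted p = 0.0768) or topi replicate 1 (-1.03, adjusted p = 0.0637), with slide as a block (-0.89) and in the fit of 6 arrays (adjusted p = 0.116). Spike-in scaling ended the calls of 13 of the 18 named falls, at differences of -1.88 to -0.96 (adjusted p = 0.0647 to 0.478), and kept those of Art7, LysE, atos, bic and hwt. It also ended those of 5 rises, RpS29, eg, Madm, Rtnl2 and Uhg5, at 1.55 to 1.99 (adjusted p = 0.0826 to 0.174).

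**Figure D4:**
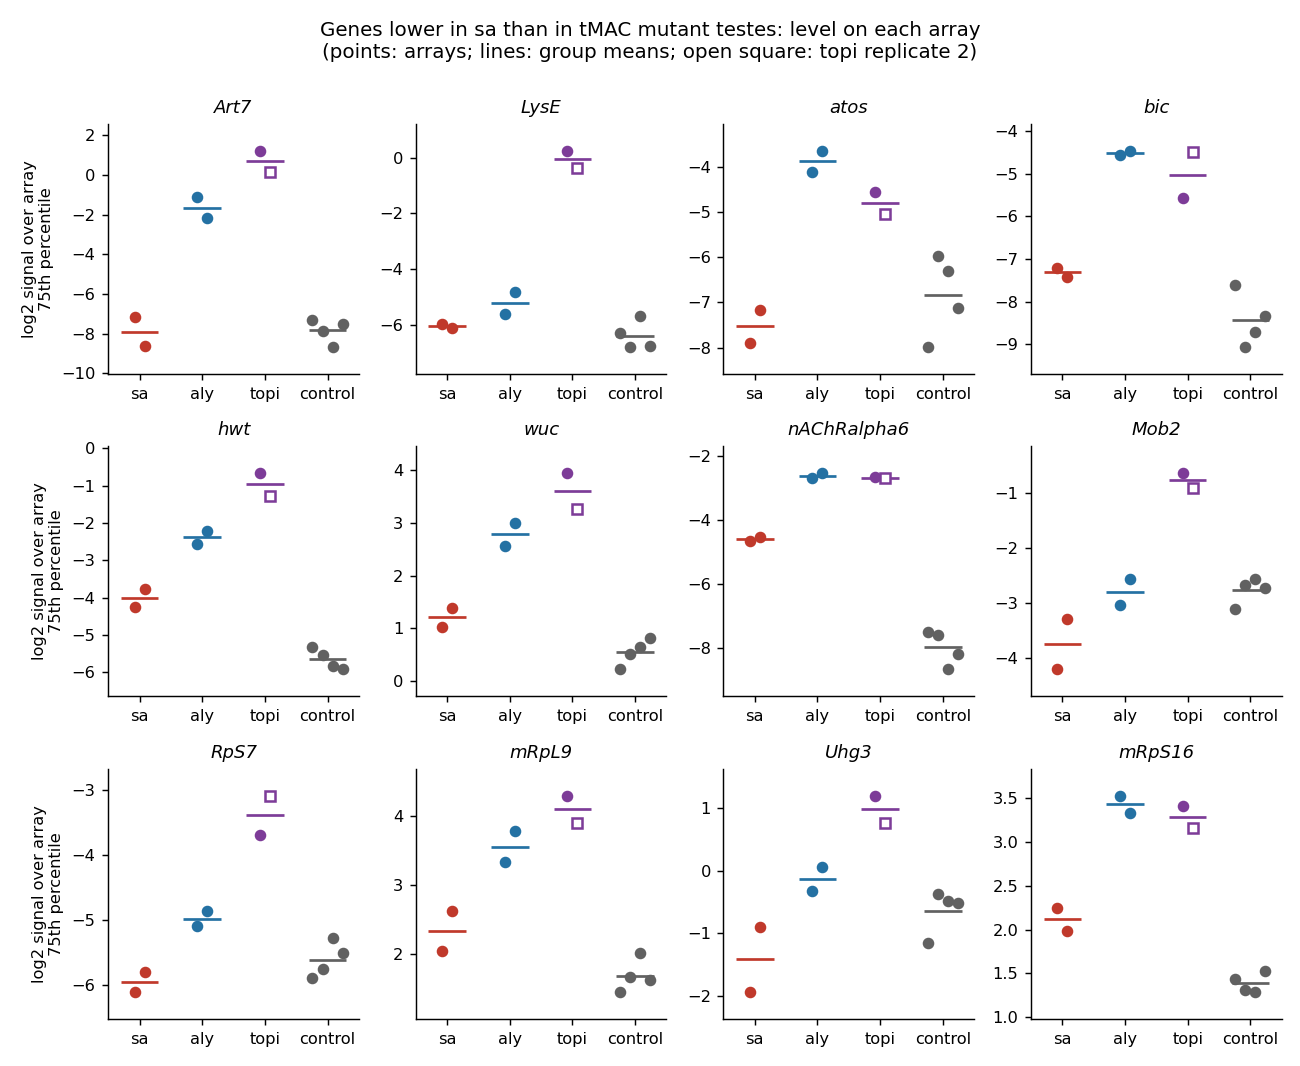
Level (log2 signal over the 75th percentile of the array) of 12 genes lower in sa than in tMAC mutants, on each sa, aly, topi and control array, with lines at group means. Both sa arrays lie below all 4 tMAC arrays in each panel; Art7 in sa lies at the control level, nAChRalpha6 in sa lies between tMAC and control, and LysE is high in topi only.

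The tMAC mean hid opposite values for several genes. Madm, for an adaptor of the factor MLF1, had levels of -3.33 and -2.95 in sa, -1.90 and -1.35 in aly, -7.86 and -8.04 in topi and -3.05 on average in control. It was thus lower in sa than in aly (-1.52, adjusted p = 0.00125) and higher in sa than in topi (4.80, adjusted p = 8.99e-07), where it was below background. The mean of both gave 1.64, at least 2.46-fold, 0.23 with normexp and 0.79 in the deposited value table. Uhg5 had levels of -0.48 on both sa arrays, 0.28 and 0.22 in aly, -4.02 and -4.77 in topi and -2.79 on average in control. Its difference was 3.92 from topi (adjusted p = 5.30e-06) and -0.72 from aly (adjusted p = 0.0646).

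Rtnl2, a reticulon-like gene, repeated this arrangement with a wider spread. Its levels were 1.12 and 0.94 in sa, 1.75 on both aly arrays, -4.94 and -1.98 in topi and 2.55 on average in control. The difference was 4.49 from topi (adjusted p = 0.000719) and -0.72 from aly (adjusted p = 0.466). The call against the tMAC mean (1.88, adjusted p = 0.0281) was 1.15 without topi replicate 1 and 2.63 without topi replicate 2. It missed the threshold without sa replicate 1 or 2 (adjusted p = 0.138 and 0.0895) and without aly replicate 1 or 2 (adjusted p = 0.0516 and 0.0567), with slide as a block (adjusted p = 0.0756) and in the fit of 6 arrays (adjusted p = 0.13).

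LysE, a lysozyme gene, was set apart by topi alone. Its levels were -5.99 and -6.11 in sa, -5.63 and -4.83 in aly, 0.25 and -0.37 in topi and -6.39 on average in control. The sa and aly arrays lay close together and both topi arrays far above. The difference was -5.99 from topi (adjusted p = 3.63e-06) and -0.82 from aly (adjusted p = 0.139), so the fall of -3.40 against the mean (adjusted p = 4.43e-05) rested on topi. The lysozyme genes form a family of similar sequences, and whether this probe tells them apart was not tested. Mob2 and RpS7 were also further below topi (-2.96 and -2.56) than below aly (-0.94 and -0.97), and aly and topi themselves differed in both (-2.02 and -1.58). By contrast, sle differed by 2.29 from aly and 2.35 from topi, and nAChRalpha6 by -1.98 from aly and -1.92 from topi.

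**Figure D5:**
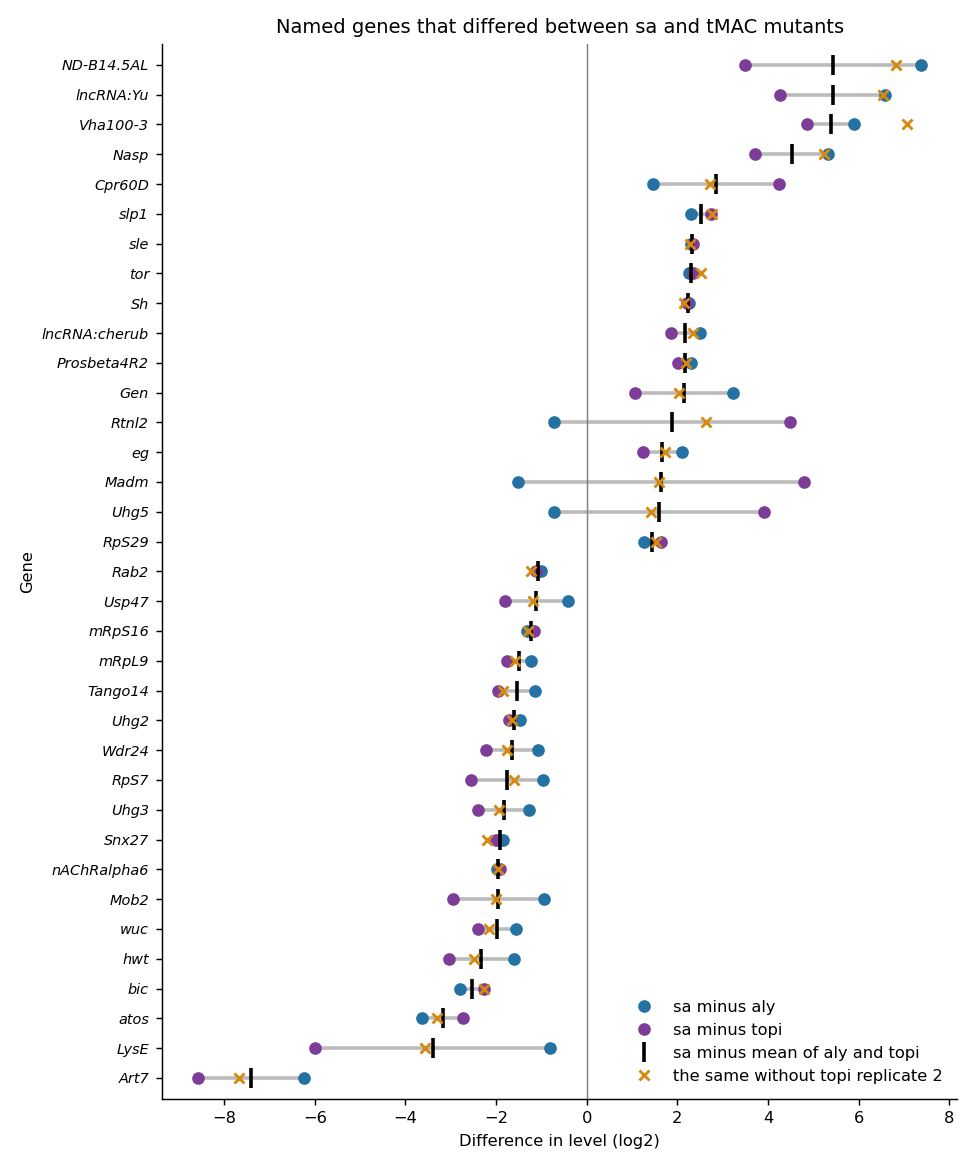
Difference in level (log2) of sa from aly, from topi, from their mean and from their mean without topi replicate 2, for the 35 named genes that were called, ordered by the difference from the mean. Rtnl2, Madm and Uhg5 have points on both sides of 0, with sa below aly and above topi, while sle and nAChRalpha6 have nearly coinciding points.

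Antisense RNAs were mostly higher in sa. Beside them, 23.7% of all targets with symbols were higher and 14.2% lower. Of 86 noncoding RNA genes in the list 36 were higher and 15 lower, with a median of 0.80. Of 28 antisense RNA targets 17 were higher and 2 lower, with a median of 2.18, and of 66 long noncoding RNA targets 19 were higher and 13 lower, with a median of 0.03. Of 259 protein-coding targets 49 were higher and 35 lower, with a median of -0.14. The grouping by RNA class was made after the data were seen and was not tested. Against control the antisense median was -1.06 for sa, -3.51 for aly and -4.14 for topi. Against tMAC it was 2.21 without topi replicate 2 and 0.67 with normexp background correction.

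lncRNA:Yu had levels of -1.42 and -1.88 in sa, -8.16 and -8.31 in aly, -8.12 and -3.72 in topi and 1.53 on average in control. It was above background on both sa arrays and, of the tMAC arrays, on topi replicate 2 alone. It was about 30.2-fold higher in sa (difference 5.43, SE 0.864, adjusted p = 0.000645), with 6.53 without topi replicate 2, 6.74 and 1.84 within slides and 2.76 with normexp. lncRNA:cherub, known from dividing neural stem cells of the larval brain, had levels of -3.77 and -3.85 in sa, -6.83, -5.76, -6.02 and -5.30 in aly and topi and -3.84 on average in control. It was at least 4.50-fold higher in sa (adjusted p = 0.000721) and differed from control by 0.03 (adjusted p = 0.946), but with normexp the difference from tMAC was 0.81, and 1.37 in the deposited value table.

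Other noncoding RNAs were chosen after their values were seen. The antisense RNA asRNA:CR32252 had the largest rise of any target with a symbol, with levels of 2.10 and 2.53 in sa, -7.11, -6.38, -7.54 and -1.41 in aly and topi and 3.20 on average in control. It was about 236-fold higher in sa (adjusted p = 0.000469), and topi replicate 2 lay above the other tMAC arrays. lncRNA:CR42859 (about 48.3-fold), lncRNA:CR33218 (about 53.3-fold) and asRNA:CR43477 (about 42.5-fold) rose in the same manner. asRNA:CR43615 was below background on all 4 control arrays as well, with levels of -1.19 and -1.08 in sa, -5.98, -7.48, -5.91 and -5.53 in aly and topi and -8.07 on average in control. It was about 33.9-fold higher in sa than in tMAC mutants. It passed the filter on dim probes only through sa, so no test of it is given. Among those that fell, lncRNA:CR43301 had levels of -4.74 and -4.17 in sa, -2.68, -2.53, -1.71 and -1.26 in aly and topi and -5.39 on average in control (difference -2.41, adjusted p = 3.01e-05).

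The dosage compensation RNAs roX1 and roX2, also chosen after their values were seen, were lower in sa by 1 of their 2 targets each. lncRNA:roX1 had levels of -0.71 and -0.81 in sa, 0.16, 0.18, 0.69 and 0.08 in aly and topi and -0.80 on average in control (difference -1.03, adjusted p = 0.00956). lncRNA:roX2 differed by -1.18 (adjusted p = 0.0287). The second targets differed by -1.52 and -0.21 and were not called, so the targets of each gene did not give the same call. Beside 23.7% higher and 14.2% lower of all matched targets, on the X 13 were higher and 6 lower of 51 (median -0.08), on 2L 15 and 12 of 68 (median 0.18), on 2R 17 and 10 of 66 (median -0.01), on 3L 18 and 8 of 76 (median -0.02) and on 3R 24 and 15 of 98 (median -0.24).

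A few more genes were chosen after their values were seen. asl (asterless), for a centriole protein, had levels of 1.68 and 1.54 in sa, 2.83, 2.85, 2.79 and 2.85 in aly and topi and 1.81 on average in control (difference -1.22, SE 0.202, adjusted p = 0.000811). RanGAP, for the GTPase activator of Ran, differed by -1.18 (adjusted p = 0.00193), and its tMAC arrays lay between 4.13 and 4.34 against 2.87 and 3.29 in sa. SuUR, for a chromatin protein that suppresses replication of heterochromatin, differed by -1.16 (adjusted p = 0.0106). Ilp4, an insulin-like peptide gene, was about 2.40-fold higher in sa (adjusted p = 0.000519), with levels of -5.41 and -5.53 in sa and -6.61, -6.11, -7.55 and -7.29 in aly and topi, which differed from each other by 1.06 (adjusted p = 0.0156).

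Late spermatid genes of the comet and cup group are transcribed after meiosis, in spermatids, where their RNAs lie at the ends of the growing tails. Of 3 with a symbol, none was called. f-cup had levels of 2.12 and 2.43 in sa, 2.90, 3.35, 3.38 and 3.09 in aly and topi and 4.92 on average in control. It passed the adjusted p (0.00728) at a difference of -0.90, and all 3 mutants were below control. It reached 2-fold with median scaling (-1.30, adjusted p = 0.0067), without sa replicate 2 (-1.06, adjusted p = 0.0182) and without aly replicate 1 (-1.02, adjusted p = 0.00698). soti (0.23, adjusted p = 0.489) did not pass. Its levels were -4.38 and -4.98 in sa, -4.57, -4.22, -5.31 and -5.54 in aly and topi and -4.94 on average in control. It thus lay near control in these mutants, by 0.26 in sa (adjusted p = 0.401) and 0.03 for the tMAC mean (adjusted p = 0.886). f-cup, soti and hale were above background on every sa, aly and topi array. For hale the sa arrays lay at -2.67 and -6.36, and its difference of 0.19 (SE 1.526, adjusted p = 0.932) in the fit without blocks gives no direction. Within slides it was -0.84 for sa replicate 1 minus aly replicate 1 and -0.80 for sa replicate 2 minus topi replicate 2. With slide as a block hale was lower in sa by -0.81 (adjusted p = 0.00274), under 2-fold. The lists of testis TAFs, meiotic cell cycle genes, spermatid differentiation genes, Y-linked fertility genes, early germ cell genes, heat shock genes and genes named by the genotypes had no tested member with a symbol.

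In the other lists 1 or 2 members were called, beside 37.3% of all targets, and in lists this small the shares say nothing about the lists. Of 4 chaperone genes 1 was higher (Nasp) and 1 lower (bic). Hsc70-1 (-0.77, adjusted p = 0.113) and the cyclophilin gene Cyp1 (-0.02, adjusted p = 0.971) were not called. Under 5 alternatives Hsc70-1 was called, with slide as a block (-1.10, adjusted p = 0.0295), median scaling (-1.16, adjusted p = 0.0107) or quantile normalization (-1.20, adjusted p = 0.0081), in the deposited value table (-1.11, adjusted p = 0.00451) and without topi replicate 1 (-1.14, adjusted p = 0.00819). Of 4 proteasome and ubiquitin genes 1 was higher (Prosbeta4R2) and 1 lower (Usp47), and puf and Uba1 were not called. Of 6 ion channel and receptor genes 1 was higher (Sh) and 1 lower (nAChRalpha6). Of 3 vacuolar proton pump and endolysosomal genes 1 was higher (Vha100-3), while Vha13 differed by -0.25 (adjusted p = 0.29) and Trpml by -0.35 (adjusted p = 0.224). In the kinase list tor was higher. Abl, for a cytoplasmic tyrosine kinase, passed the adjusted p at -0.98 (0.00153), and RtGEF, a guanine exchange factor gene that is no kinase, at 0.99 (0.0279), both just under 2-fold. Abl reached 2-fold with median scaling (-1.37), with normexp (-1.0), without sa replicate 2 (-1.16), aly replicate 1 (-1.05) or topi replicate 2 (-1.01) and against topi alone (-1.21), at adjusted p of 0.000602 to 0.00437. RtGEF reached it with slide as a block (1.14, adjusted p = 0.000695), without sa replicate 1 (1.25, adjusted p = 0.0497) or aly replicate 2 (1.19, adjusted p = 0.0172) and against aly alone (1.04, adjusted p = 0.0492). Of 3 cuticle and eggshell genes 1 was higher (Cpr60D), of 3 transcription factor genes 1 was higher (slp1), and of 3 digestive enzyme genes 1 was lower (LysE). Neither of the cytochrome P450 genes tested with a symbol, Cyp4d20 and Cyp9c1, was called, though Cyp4d20, which passed the filter on dim probes only through topi, was with quantile normalization (-1.28) and slide as a block (-1.05).

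No marker of another cell type tested with a symbol was called in the fit of all arrays, but eya was under several alternatives. For somatic cyst and hub cells 3 of 10 markers were tested with a symbol (eya, puc and ptc) and none was called. Their summed level, on the linear scale, was 0.0735 to 0.0921 of the 75th percentile in sa, 0.0924 to 0.170 in tMAC mutants and 0.0678 to 0.139 in control. ptc was below background on all sa and tMAC arrays, and eya differed by -0.85 (adjusted p = 0.0114), under 2-fold. It was called with median scaling (-1.24, adjusted p = 0.00607) or quantile normalization (-1.29, adjusted p = 0.00332), in the deposited value table (-1.08, adjusted p = 0.00447), without sa replicate 2 (-1.05, adjusted p = 0.0196) and against topi alone (-1.06, adjusted p = 0.00848). The gut protease genes Jon65Aiii (0.43, adjusted p = 0.307) and epsilonTry (0.27, adjusted p = 0.805) were not called. Of the markers of muscle sheath, fat body, blood cells and accessory gland none was tested with a symbol, so these cells were not assessed.

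The largest differences lay in FlyBase transcripts for which the gene table gave no symbol. FBtr0082316 had levels of 3.09 and 2.50 in sa, -7.93, -8.07, -8.24 and 0.34 in aly and topi and 4.82 on average in control, about 331-fold higher in sa (adjusted p = 0.00168). FBtr0082620 was about 394-fold higher (adjusted p = 0.00328). In both, topi replicate 2 was the 1 tMAC array above background. FBtr0085534 had levels of -3.63 and -6.80 in sa, 3.23, 3.11, 3.09 and 2.92 in aly and topi and -0.42 on average in control (difference -8.31, adjusted p = 6.69e-06). FBtr0084914 was about 286-fold lower in sa (adjusted p = 0.00447), but its aly arrays disagreed, at 0.93 and -7.67.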

How the data were processed

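Single-colour Agilent arrays of pooled testis RNA were grouped by their labels. Signals came from Agilent Feature Extraction, version 10.7.3.1, and the array design was annotated to dm3, both per the file headers. Spot intensity on the linear scale is what the authors deposited in the scanner files, as a background-subtracted processed signal, a median signal and a local background, with quality flags. Log2 values make up the deposited series table; their normalization is not given in the sources used here, and the table served as an alternative. No positions are given, because the gene table is of another assembly.

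Each array had 45019 spots, of which 1417 were controls. Spots of a probe were averaged, which gave 32162 probes. The level is the log2 processed signal minus the array's 75th percentile over probes that are no controls. Probes stayed in when all arrays of any of the 5 groups stood well above background there, and the brightest kept probe stood for a target. Symbols came from a RefSeq gene table, which matched 554 probes (393 by accession, 161 by synonym) of 470 genes; 25 probes matched several genes and 31583 none. No spot was saturated, and the number of arrays limits the precision (median SE 0.347).

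The 13 arrays entered a single limma fit (version 3.58.1, under R 4.3.3) of 5 group means, with 8 residual degrees of freedom and 2.42 from the prior, tested two-sided with Benjamini-Hochberg adjustment over all 19766 targets. On simulated data of this design and 19766 targets, 65 of 100 targets changed 4-fold and 87 of 100 changed 8-fold were called, with 10 false calls. The simulation drew independent noise, kept all other targets equal in all groups, and had no slide effect and no array that stood apart. Its rates therefore do not carry over to the real arrays, where 37.3% of targets were called. For a group below background on every array, the fold is taken against its level, raised where needed to the lowest signal above background on each array. That bound depends on the background correction.

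Named genes are, among matched genes with a proper symbol, the 12 largest calls in each direction with signal above background in both arms, the 5 largest in each direction by bound, up to 4 members of each list, and every measured member of the comet and cup, tMAC, testis TAF and meiotic lists. Members, lists and rules were chosen with earlier results of these data known. Of 27 lists 16 had a tested gene. Alternatives were other scalings, background corrections, filters, probes, samples, blocks, weights and left-out arrays. Because no mean-signal column was at hand, normexp (offset 50) used the median signal. Promoter motifs were not searched, since no promoter sequence was used here. Same-numbered arrays of sa, aly and topi did not deviate together in every pair (r of -0.047 to 0.678), so replicate numbers were not taken as pairs. The label of 1 control array gives 2 different replicate numbers; its title was used.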

Additional observations from a re-analysis of the deposited data

Results flagged for a closer look

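The aly and topi arrays differed from each other, by at least 2-fold at an adjusted p under 0.05 in limma, for 12 named genes, so for these the tMAC mean stands for neither. The aly minus topi difference was positive for Madm (6.32), Rtnl2 (5.20), Uhg5 (4.64), Cpr60D (2.77) and soti (1.03). It was negative for LysE (-5.17), Art7 (-2.33), Mob2 (-2.02), RpS7 (-1.58), Cyp1 (-1.50), hwt (-1.42) and Usp47 (-1.39). For Madm, Rtnl2, Uhg5, LysE, Mob2, Usp47, Cyp1 and soti the difference between the 2 tMAC genotypes exceeded in size that between sa and their mean.

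In 12 groups of 4 arrays a single array lay far from the other 3. Among the tMAC arrays these were topi replicate 2 for Nasp (-5.14) and lncRNA:Yu (-3.72), topi replicate 1 for bic (-5.58), and aly replicate 1 for hale (-1.83), Cyp9c1 (-2.99), ppk27 (-6.55) and epsilonTry (-5.38). Among the control arrays these were replicate 1 for mRpS24 (-3.86), Cyp9c1 (-3.18) and slp1 (-4.58), replicate 3 for RpS29 (0.37) and replicate 4 for ppk27 (-8.37). Where 4 arrays are alike, chance alone marks about 1 in 20 of all groups screened, so some of these 12 may be due to chance. The aly and topi arrays hold 2 genotypes, so that rate need not hold for them. Both aly replicate 1 and control replicate 1 lay on slide 1, as did sa replicate 1, but no topi array. Over all targets the deviations of these arrays from their group means correlated. The r was 0.678 for sa with aly, 0.608 for control with sa and 0.561 for control with aly. On slide 3 it was -0.047 for sa replicate 2 with topi replicate 2. The main fit held no slide term, and a part of the slide in these values was not tested. The 2 topi replicate 2 values lie toward sa, as that array did over the targets called without it.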

How the results depend on the processing

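Over 26 refits, the 35 called named genes gave 893 comparisons, of which 829 kept their direction and call, 64 kept their direction only and 0 turned. Art7, LysE, atos, hwt, sle, slp1, Cpr60D, Nasp, lncRNA:Yu and ND-B14.5AL kept their call in every refit that could test them. The counts moved by over 1.5 times as follows. Between sa and tMAC, higher targets were 1484 with the filter on all 6 arrays, and lower targets 6480 with median and 680 with spike-in scaling. Against aly alone, they were 1378 higher with that filter, and 5694 and 350 lower with those scalings. Against topi alone, they were 1570 higher with that filter, 2147 with spike-in scaling and 2183 in the fit of 6 arrays, and 832 lower with spike-in scaling. Between aly and topi, they were 859 higher and 977 lower with that filter, 461 and 667 with spike-in scaling and 768 and 564 in the fit of 6 arrays. Leaving out 1 array at a time gave 2930 to 3717 higher and 2370 to 4104 lower for tMAC, 2151 to 3353 lower for aly, 2542 to 4402 lower for topi and, between aly and topi, 1028 to 1556 higher and 937 to 2168 lower. The 937 came without aly replicate 1. The lowest lower counts of sa against tMAC, aly and topi came without sa replicate 1. For topi alone it was also low without topi replicate 1 (2598). The causes were not tested beyond what each setting removes.

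With a replicate block, 3664 targets were higher and 4053 lower between sa and tMAC; the numbers do not pair the samples, and the block ended no call of a named gene.

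Differences turned sign for 14 genes that were not called; of these, mRpS24 was at -1.54. With median scaling they were Vm34Ca -0.37, Uba1 -0.33, Cyp9c1 -0.25, hale -0.20, soti -0.16 and epsilonTry -0.12. With quantile normalization they were Vha13 0.12, Vm34Ca -0.19, Cyp9c1 -0.21, hale -0.10 and soti -0.09, and in the deposited table Vha13 0.11, Vm34Ca -0.34, Cyp9c1 -0.20, hale -0.13 and soti -0.17. With normexp they were Vm34Ca -0.24, Cyp9c1 -0.05, hale -0.04, soti -0.05, epsilonTry -0.04 and Jon65Aiii -0.03. With spike-in scaling they were ptc 0.01 and Cyp1 0.09, and with the mean of probes Uba1 -1.22. With slide as a block they were ptc 0.35, Vm34Ca -0.43, Uba1 -0.20, Cyp9c1 -0.28, hale -0.81 (adjusted p = 0.00274) and epsilonTry -0.13. Against aly alone they were Trpml 0.02, ptc 0.11, Cyp1 0.73, Uba1 -0.34, Cyp9c1 -0.33, hale -0.69, soti -0.29 and epsilonTry -0.31, and of the called genes Uhg5 -0.72, Madm -1.52 and Rtnl2 -0.72 (within slide 1 -0.75, -1.44 and -0.63). Against topi alone they were Cpr49Ag 0.96, puc 0.40 and Vm34Ca -0.23. Leaving out 1 array at a time gave ranges of -3.25 to 0.17 for mRpS24, -1.28 to 0.97 for Cpr49Ag, -0.83 to 0.56 for puc, -0.58 to 0.38 for ptc, -0.12 to 0.08 for Cyp1, -0.12 to 0.16 for Vm34Ca, -0.85 to 0.97 for Uba1, -0.73 to 1.02 for Cyp9c1, -1.65 to 2.04 for hale, -0.07 to 0.53 for soti and -0.81 to 1.35 for epsilonTry.

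Signal near background limits the bounds: normexp ended 11 calls of named genes, 6 rises at 0.23 to 0.81 and 5 falls at -0.99 to -0.47.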
